A study of Mus musculus with 6 samples.

Results

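Bdh1, Bdh2, Oxct1 and Acat1, the genes of ketone body use, were followed through mouse skeletal muscle development. They are the entries whose symbol matched in a table of RNA levels, 4 of 23367 entries. The genes were chosen by name with results of these libraries already known, among them the rise of Bdh1 after PN14, so their levels and fold changes are given as a description with no test. RNA came from the gastrocnemius, a calf muscle, of wild type FVB mice at embryonic day 18.5 (E18.5), at postnatal days 2, 14 and 28 (PN2, PN14 and PN28) and in adults of 22 weeks. E18.5 was a pool of male and female animals, PN2 was a pool of males, and each remaining library was from a single male. There were 6 libraries from 5 stages, and only PN14 had replicates, replicate 1 and replicate 2.

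Ketone bodies are made in the liver from fatty acids and are burned in muscle, heart and brain. In the mitochondria, Bdh1 oxidises beta-hydroxybutyrate to acetoacetate, Oxct1 moves coenzyme A from succinyl-CoA to acetoacetate, and Acat1 splits the product into acetyl-CoA for the citric acid cycle. Milk is rich in fat, and blood ketone bodies in rodents are high in the suckling period and fall at weaning. The labels give age only, so PN2 and PN14 are called suckling and PN28 and adult weaned from age alone, weaning in mice lying between PN14 and PN28. The question was how RNA of these enzymes stood on either side of weaning.

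In the mouse genome (mm9, GENCODE M1), Bdh1 lies on chromosome 16 from 31422366 to 31458987 on the plus strand, with up to 7 exons. Bdh2 lies on chromosome 3 from 134944185 to 134967390 on the plus strand, with up to 10 exons. Oxct1 covers chromosome 15 from 3976383 to 4105344 on the plus strand, with up to 17 exons, and Acat1 covers chromosome 9 from 53388627 to 53418487 on the minus strand, with up to 12 exons. Antisense genes overlap Bdh1 (Gm15743, 416 bases) and Oxct1 (BC037032, 1020 bases, and Gm15632, 2807 bases). The counting is not stated to use strand, so reads from a gene and its antisense partner cannot be told apart. BC037032 was counted separately, at 0.10 to 0.19 FPKM.

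The sequences before the annotated starts of Bdh1 and Oxct1 are shown because these genes had the largest fold changes of the set. They come from RefSeq on GRCm38.p6, another build than the gene positions above, are 250 bases each on the plus strand, and carry CpG dinucleotides in capitals. Of the 4 genes, 3 matched the table, with 4 starts in all. The Bdh1 sequences lie at chr16:31422047-31422296 and chr16:31428503-31428752, and that of Oxct1 at chr15:4026178-4026427.
Bdh1, upstream start: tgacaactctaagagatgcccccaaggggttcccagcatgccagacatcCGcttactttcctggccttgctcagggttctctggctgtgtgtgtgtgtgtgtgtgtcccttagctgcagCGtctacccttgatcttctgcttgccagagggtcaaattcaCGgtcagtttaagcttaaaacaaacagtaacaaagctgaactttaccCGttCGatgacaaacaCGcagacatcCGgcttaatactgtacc
Bdh1, downstream start: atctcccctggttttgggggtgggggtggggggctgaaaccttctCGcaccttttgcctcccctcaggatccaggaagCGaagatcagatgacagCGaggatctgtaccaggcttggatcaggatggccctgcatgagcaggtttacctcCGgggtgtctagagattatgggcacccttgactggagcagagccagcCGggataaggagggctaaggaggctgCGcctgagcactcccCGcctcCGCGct
Oxct1: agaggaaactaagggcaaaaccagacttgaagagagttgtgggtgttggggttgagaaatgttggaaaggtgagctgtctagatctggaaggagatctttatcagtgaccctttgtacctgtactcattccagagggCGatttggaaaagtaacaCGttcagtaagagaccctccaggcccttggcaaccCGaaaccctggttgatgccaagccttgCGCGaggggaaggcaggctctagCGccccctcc

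These windows hold 7 CpG dinucleotides before the upstream Bdh1 start, 9 before the downstream Bdh1 start and 6 before the Oxct1 start, beside a median of 6 over 32851 RefSeq windows of the same length. GC content was 49.6%, 60.8% and 52.0% in the same order, with a median of 52.4% over all windows. Both strands were searched for AGGTCA, a core element of nuclear receptors, for the longer motif AAGGTCA, which contains it, for the TATA box TATAAA and for the E-box motif CANNTG. The motif AGGTCA, its longer form and the TATA box were found in none of the 4 member windows, the Bdh2 window included, and in 14%, 4.08% and 12.4% of all windows. CANNTG was found once, 165 bases before the downstream Bdh1 start, and is present in 66.2% of all windows.

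The libraries held between 125402932 and 157868359 counts on genes, so 3 counts correspond to at most 0.0239 CPM, counts scaled to a common library total. FPKM, which is scaled to gene length and to the library total, is used below for levels, and fold changes come from counts scaled by edgeR's TMM method. TMM factors fell from 1.45 at E18.5 and PN2 to 0.714 in the adult, so a gene can fall in FPKM and not in TMM-scaled counts. Muscle fibre RNA was present in all libraries, with Acta1 (skeletal actin) at 11979 to 37682 FPKM. Each library had a sequencing lane of its own, so lane and stage cannot be told apart. All tests take their spread from the PN14 pair, 1 residual degree of freedom, and assume that the other stages vary alike. The PN14 libraries were from single animals, whereas E18.5 and PN2 were pools, which may vary less.

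Bdh1 was the gene whose RNA moved most. Its level was 0.66 FPKM at E18.5, 0.51 at PN2, 0.10 and 0.13 at PN14 (replicates 1 and 2), 1.97 at PN28 and 7.68 in adult muscle. The weaned libraries lay above all earlier libraries and PN14 was lowest, an order whose share among all genes was not counted. These levels rest on 38 and 58 counts for the PN14 pair, with exact 95% Poisson intervals of 26.9 to 52.2 and 44.0 to 75.0 counts, and on 3366 counts in the adult; the intervals cover counting error only. In TMM-scaled counts, Bdh1 was 2.89-fold lower at PN14 than at PN2, 20.7-fold higher at PN28 than at PN14 (21.4-fold over replicate 1 and 20.1-fold over replicate 2), and again 4.29-fold higher in the adult than at PN28. In the same scaling the PN14 replicates were at 0.360 and 0.383 CPM, closer together than each of these steps, while the other stages had no replicates to show their spread. On the log2 scale the steps were -1.52 (SE 0.246), 4.37 (SE 0.241) and 2.10 (SE 0.254), and the preceding step from E18.5 to PN2 was -0.37 (SE 0.264).

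Oxct1, which commits acetoacetate to oxidation, was abundant at every stage and had its lowest level shortly after birth. It stood at 71.7 FPKM at E18.5, 25.98 at PN2, 75.31 and 37.3 at PN14 (replicates 1 and 2), 107.26 at PN28 and 104.11 in adult muscle. PN2 was lowest and both weaned libraries were higher than every suckling library, an order whose share among all genes was not counted. The PN14 replicates, however, lay 2.02-fold apart and the E18.5 level fell between them. With this spread, the PN14 mean was 56.3 ± 26.9 FPKM (SD, n = 2), and the PN28 level was 1.53-fold that of replicate 1 and 3.69-fold that of replicate 2 in TMM-scaled counts. The log2 step from PN2 to PN14 was 1.82 (SE 0.517), that from PN14 to PN28 was 1.11 (SE 0.517), and that from E18.5 to PN2 was -1.46 (SE 0.597). PN28 and adult differed by 0.09 (SE 0.597), less than the standard error. Between the PN14 replicates, Pdk4 also differed, at 131.95 FPKM in replicate 1 and 360.86 in replicate 2, as did the summed red cell markers, at 2137 and 1181; their part in the Oxct1 difference was not tested.

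Acat1, the mitochondrial thiolase that also serves isoleucine breakdown, was abundant throughout and nearly level in TMM-scaled counts. Its FPKM was 95.61 at E18.5, 120.49 at PN2, 58.86 and 65.51 at PN14 (replicates 1 and 2), 55.25 at PN28 and 67.79 in adult muscle. In FPKM, E18.5 and PN2 stood above all later libraries. In TMM-scaled counts the highest and lowest stage differed by only 1.44-fold, and the order by stage was not the same, with the adult highest and E18.5 lowest. The steps between neighbouring stages were 0.33 (SE 0.292), -0.30 (SE 0.253), 0.06 (SE 0.253) and 0.43 (SE 0.292) on the log2 scale from E18.5 onward. With libraries scaled by total count alone, the step from PN2 to PN14 was -0.95 and that from PN14 to PN28 was -0.17, so how level Acat1 was depended on the scaling.

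Bdh2, a cytosolic relative that can act on beta-hydroxybutyrate, was low at every stage. It stood at 0.79 FPKM at E18.5, 0.73 at PN2, 0.78 and 1.05 at PN14 (replicates 1 and 2), 1.0 at PN28 and 0.78 in adult muscle. In FPKM the suckling and weaned values overlapped, and the PN14 replicates spanned the range of all other libraries except the PN2 value. In TMM-scaled counts they did not overlap, at 0.549 to 1.16 CPM in suckling and 1.18 to 1.39 CPM in weaned libraries. Whether they overlapped thus depended on the scaling. The largest step was that from PN2 to PN14, at 1.0 (SE 0.367) in log2 of TMM-scaled counts, and the remaining steps were within 0.34 of 0. Bdh2 was counted at 109 to 175 per library, so its levels rest on few counts.

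**Figure D1:**
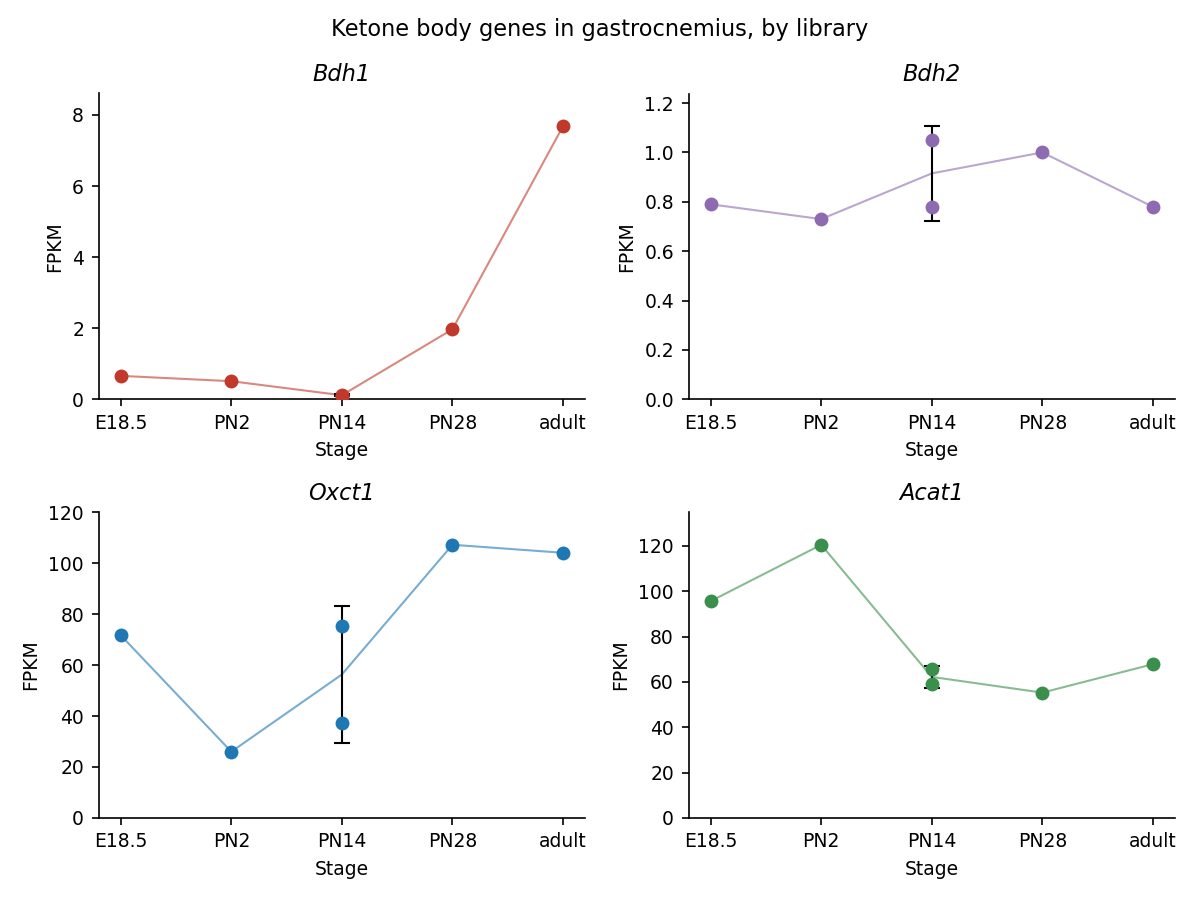
FPKM of Bdh1, Bdh2, Oxct1 and Acat1 (vertical axes, each from 0) by stage; each point is 1 library, the line joins stage means, and the bar at PN14 is the mean ± SD of its 2 libraries. Bdh1 is near 0 at PN14 and reaches 7.68 in the adult, Oxct1 is lowest at PN2 with widely spaced PN14 replicates, Acat1 is highest at PN2, and Bdh2 stays between 0.73 and 1.05.

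The plot of levels by library also shows that these enzymes were far apart in abundance. Ratios between genes within a library do not depend on the scaling between libraries, and FPKM is per length. Bdh1 RNA was 0.92% of Oxct1 RNA at E18.5, 1.96% at PN2, 0.133% and 0.349% for the PN14 pair, 1.84% at PN28 and 7.38% in adult muscle. The adult ratio was the highest and the PN14 ratios the lowest, while PN2 and PN28 were close to each other. Oxct1 RNA was 75.0% of Acat1 RNA at E18.5, 21.6% at PN2, 128% and 56.9% for the PN14 pair, 194% at PN28 and 154% in adult muscle. Acat1 thus exceeded Oxct1 in the E18.5, PN2 and PN14 replicate 2 libraries, and Oxct1 exceeded Acat1 in PN14 replicate 1 and in both weaned libraries. Bdh1 was below Bdh2 up to PN14, at 0.124 to 0.835 times its FPKM, and above it in the weaned libraries, at 1.97 times at PN28 and 9.85 times in the adult.

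**Figure D2:**
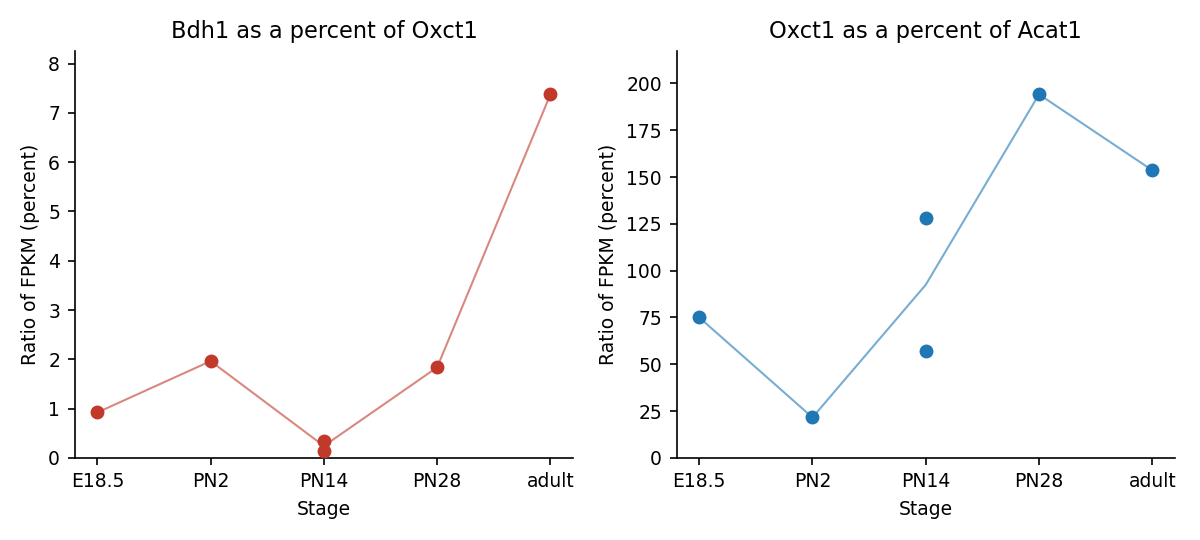
Ratio of FPKM within each library, in percent, for Bdh1 over Oxct1 (left) and Oxct1 over Acat1 (right) by stage; points are libraries and lines join stage means. Bdh1 stays at or below 1.96% of Oxct1 until PN28 and is 7.38% in the adult, and Oxct1 rises from 21.6% of Acat1 at PN2 to 194% at PN28.

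As a measure against mitochondrial content, the genes were set against the median FPKM of 14 mitochondrial reference genes, such as citrate synthase (Cs) and the outer membrane channels Vdac1 to Vdac3. Oxct1 was 53.8% of that median at E18.5, 20.4% at PN2, 61.2% and 26.4% for the PN14 pair, 92.7% at PN28 and 105% in adult muscle. Bdh1 was 0.495% of it at E18.5, 0.401% at PN2, 0.0812% and 0.0921% for the PN14 pair, 1.70% at PN28 and 7.73% in adult muscle. Both genes were thus higher after weaning beside this reference as well, while Acat1 was 94.6% of it at PN2 and 46.4% to 68.3% from PN14 onward. The median itself was 127 FPKM at PN2, 123 and 141 for the PN14 pair, 116 at PN28 and 99.3 in adult muscle. The summed FPKM of the same 14 genes was 1766, 2413 and 2526, 2260 and 2407 in that order. The ratios therefore depend on how the reference is taken.

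Weaned against suckling, taken as the mean of PN28 and adult minus the mean of PN2 and PN14 in the stage fit, gave a log2 fold change of 4.66 (SE 0.177) for Bdh1. Oxct1 was higher by 2.07 (SE 0.395), Bdh2 by 0.72 (SE 0.279) and Acat1 by 0.13 (SE 0.193). With the PN2 library left out the Oxct1 value was 1.16, and with libraries scaled by total count alone it was 1.47. For Bdh1 the value ran from 3.61 without the adult library to 5.71 without the PN28 library. When libraries were scaled by total count alone, the Acat1 value was -0.50 and that of Bdh2 was 0.089, beside a median of all genes of -0.671 (-0.041 with TMM).

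**Figure D3:**
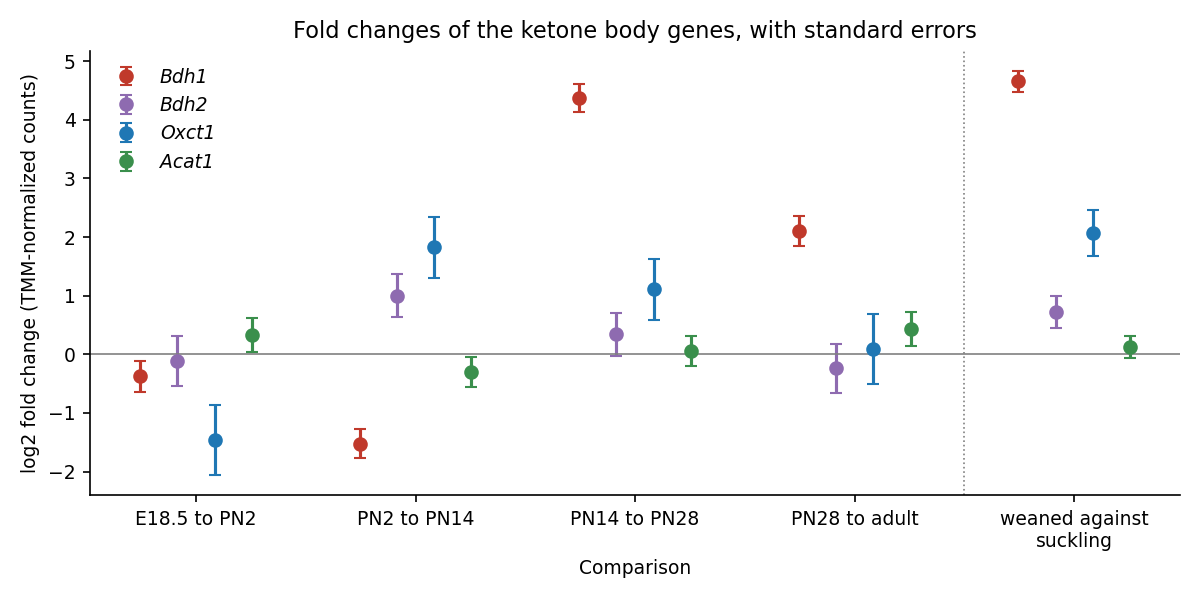
log2 fold change of TMM-scaled counts (vertical axis) for each interval and for weaned against suckling; points are the fitted values of the 4 genes and bars are ± 1 standard error. Bdh1 moves from -1.52 between PN2 and PN14 to 4.37 between PN14 and PN28, Oxct1 has the widest bars, and Acat1 stays within 0.43 of 0.

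Composition of the tissue also moved between stages, and in bulk RNA fewer cells of a type and less RNA per cell cannot be told apart. Genes other than the 4 were called at a log2 fold change of 1 or more in either direction with an adjusted p under 0.05 (edgeR's quasi-likelihood test, Benjamini-Hochberg adjustment), a rule that took 23.2% of the 16882 genes tested in weaned against suckling muscle. All 6 fat cell markers (Adipoq, Plin1, Cidec, Cfd, Lep and Retn) were called higher in weaned than in suckling muscle (4 with library totals alone), with summed FPKM of 59.74 at PN2, 18.61 and 16.83 for the PN14 pair, 115.61 at PN28 and 75.89 in adult muscle. In the same order, Bdh1 was at 0.51, 0.10 and 0.13, 1.97 and 7.68 FPKM. Summed slow fibre markers were 2516 at PN2, 4053 and 3205 at PN14, 1476 at PN28 and 1249 in adult muscle, and 1 of 6 was called lower, Tnni1, slow troponin I, at -1.53 (edgeR's quasi-likelihood test, adjusted p = 0.00794). Summed fast fibre myosins were 261 at PN2, 9179 and 8750 at PN14, 10836 at PN28 and 12804 in adult muscle. The largest difference of this sum lay between PN2 and PN14. Myh4 made up most of the sum from PN14 onward. It was at 7179 and 6791 FPKM for the PN14 pair, 9492 at PN28 and 12055 in adult muscle. Myh1 and Myh2, the remaining members, fell after PN14. Myh1 was 1238 and 1377 FPKM for the PN14 pair, 842 at PN28 and 512 in adult muscle. Myh2 was 763, 582, 501 and 237 in the same order. Of the 3, only Myh1 was called higher, at 2.19 (edgeR's quasi-likelihood test, adjusted p = 0.024). Myh4 had a larger value in the reported fit, 4.45 (SE 1.335), but was not called. The Myh1 value was -0.70 with PN2 left out. With library totals alone 2 were called higher. All 3 satellite cell markers (Pax7, Myf5 and Cdh15) were called lower in weaned muscle, 2 of 6 red cell markers were called lower, and with TMM no marker of muscle fibre, endothelium or macrophages was called, out of 4, 4 and 3. With library totals alone, 6 of 6 red cell, 4 of 6 slow fibre, 3 of 4 endothelial, 1 of 3 macrophage and 3 of 3 satellite cell markers were called lower, and 2 of 4 muscle fibre markers higher. The part of these changes in the values of the ketone body genes was not tested.

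The genes of neighbouring pathways were read from 8 lists, which were also set with earlier results known and of which 93 genes were tested. Weaned against suckling, 23 of the 93 were called higher and 3 lower, or 28%, beside 23.2% of all genes, with a median log2 fold change of 0.51 beside -0.041 for all genes. The split turned with the scaling, since 1 was called higher and 7 lower with library totals alone, beside 654 higher and 5353 lower of all genes. It rested on PN2 as well: 4 were called with PN2 left out, Pdpr higher and Pdk4, Acadl and Cpt1a lower (named after their values were seen), and 13 with the adult left out. Of all genes, 1137 were called with PN2 left out, beside 3923 in the reported fit. From PN2 to PN14, 45 pathway genes were called higher and 2 lower (50.5%), beside 23% of all genes. With library totals there were 10 higher and 8 lower, beside 854 and 4971 of all genes. In the other 3 intervals few genes of any kind were called: 0.0296% of all genes from E18.5 to PN2, 0.0178% between PN14 and PN28, which holds weaning, and 0.521% between PN28 and adult. Of the 93 pathway genes, edgeR's quasi-likelihood test called 0 in each of these intervals, and 22, 10 and 5 had an unadjusted p under 0.05, beside 1121, 1420 and 3091 of all genes. DESeq2's Wald test called 8, 1 and 1 of the 93 in the same order, and the likelihood ratio test called 6, 2 and 1.

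Other enzymes of acetoacetate and the paralogs of the set gave no call in 5 tested, and 1 was called lower with library totals alone. Acaa2, a mitochondrial thiolase named after its values were seen, had a value of -0.70 (edgeR's quasi-likelihood test, adjusted p = 0.0293), below the size required. Oxct2a and Oxct2b, the testis paralogs of Oxct1, had at most 6 counts in any library and were not tested. Acat2, the cytosolic thiolase, was at 16.28 FPKM at E18.5, 11.11 at PN2 and 3.07 to 3.76 from PN14 onward, with a weaned against suckling value of -0.096 (SE 0.144) and a step of -1.07 from PN2 to PN14 that passed the test (edgeR's quasi-likelihood test, adjusted p = 0.0119). Aacs, which activates acetoacetate in the cytosol for lipid synthesis, had a value of -0.0039 (SE 0.244) and Acat3 one of 0.68 (SE 0.48), and neither passed.

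Among 8 transport genes tested, 2 were called higher in weaned muscle and 0 lower. These were Slc16a3, the lactate exporter MCT4, at 1.23 (SE 0.222, edgeR's quasi-likelihood test, adjusted p = 0.00911), and Bsg, the chaperone of these transporters, at 1.06 (SE 0.231, adjusted p = 0.0153). With library totals alone 0 of the 8 were called, and these values were 0.61 and 0.44. Slc16a1 (MCT1), which carries lactate and ketone bodies into cells, was at 7.67 FPKM at E18.5 and 10.34 to 13.47 thereafter, and its value of 0.48 (SE 0.13) was below the size required and became -0.15 with library totals alone. Slc16a7 (MCT2) was low, at 0.12 to 0.72 FPKM, with a value of -0.12 (SE 0.348).

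Succinyl-CoA, the partner of acetoacetate in the Oxct1 reaction, is supplied by the citric acid cycle and by propionate and methylmalonate. Of 10 such genes tested, 3 were called higher in weaned muscle and 0 lower, with a median of 0.81 (0.18 with library totals, under which 0 were called). Those called were Pcca, of propionyl-CoA carboxylase, at 1.39 (SE 0.17), Mut, methylmalonyl-CoA mutase, at 1.32 (SE 0.196), and Ogdh, of 2-oxoglutarate dehydrogenase, at 1.09 (SE 0.311). From PN2 to PN14, 8 of the 10 were called higher, as were 3 with library totals.

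Breakdown of isoleucine, a branched-chain amino acid, shares its last thiolase step with ketone body use, through Acat1. In the list of branched-chain amino acid breakdown, 9 of 15 genes were called higher in weaned muscle and 0 lower, with a median of 1.09 (0.48 and 0 called with library totals). Acadsb, the short branched-chain acyl-CoA dehydrogenase, was higher by 1.43 (SE 0.195), Bcat2, the mitochondrial aminotransferase, by 1.37 (SE 0.224), and Bckdhb, of the branched-chain ketoacid dehydrogenase, by 1.22 (SE 0.186). The calls on these 3 genes were lost with PN2 left out. From PN2 to PN14, 11 of the 15 were called higher (median 1.13), or 2 with library totals, and from PN14 to PN28 0 were (median 0.22).

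Beta-oxidation, which supplies the liver with acetyl-CoA for ketone bodies and is the main route of fat use in muscle, had a median near 0 across the whole contrast with TMM. Of its 17 genes, 0 were called higher and 1 lower in weaned muscle, with a median of 0.045 (-0.58 and 3 called lower with library totals). The gene called was Cpt1a, the non-muscle carnitine palmitoyltransferase, which stood at 4.95 FPKM at E18.5, 18.41 at PN2, 5.12 and 9.26 at PN14, 3.09 at PN28 and 1.87 in adult muscle, and fell by 1.62 (SE 0.206, edgeR's quasi-likelihood test, adjusted p = 0.00443). From PN2 to PN14, 6 of the 17 were called higher and 0 lower, with a median of 0.94, or 1 higher and 1 lower with library totals. All 17 had fitted values above 0 from E18.5 to PN2 (median 0.97) and below 0 from PN14 to PN28 (median -0.33), also with library totals, although 0 were called in either interval by edgeR's quasi-likelihood test with TMM. At an unadjusted p under 0.05 there were 13 in the first and 3 in the second, and 3 were called higher in the first with library totals.

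Genes that govern pyruvate entry into mitochondria gave 5 called higher and 2 lower of 13, with a median of 0.65 (0.03, with 1 higher and 2 lower, with library totals). Mpc1, of the mitochondrial pyruvate carrier, was higher by 1.92 (SE 0.205), while the pyruvate dehydrogenase kinases Pdk3 and Pdk4 fell by 1.81 (SE 0.215) and by 1.60 (SE 0.39). From PN2 to PN14, 9 of the 13 were called higher and 1 lower (median 1.45), or 4 and 1 with library totals. Between PN14 and PN28, 0 were called with TMM (median 0.17) and 1 lower with library totals. In these intervals in turn, the steps were 2.60 and 0.33 for Mpc1, -1.93 and -0.52 for Pdk3, and 1.95 and -2.86 for Pdk4. Pdk4, which restrains glucose oxidation when fat is burned, stood at 14.59 FPKM at E18.5, 97.17 at PN2, 131.95 and 360.86 at PN14, 27.92 at PN28 and 37.83 in adult muscle. It was thus highest in the suckling libraries, and its call was lost without the PN28 or the adult library (edgeR's quasi-likelihood test, adjusted p = 0.101 and 0.0832).

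Of the 14 mitochondrial reference genes, 3 were called higher and 0 lower, with a median of 0.59 (-0.036 and 0 called with library totals). These were Vdac1 at 1.10 (SE 0.323), Vdac3 at 1.07 (SE 0.242) and Timm23, of the inner membrane import channel, at 1.05 (SE 0.183). From PN2 to PN14, 4 of the 14 were called higher (median 0.91), or 0 with library totals, and from PN14 to PN28 0 were (median 0.05). Among 11 regulators and receptors, Esrra, a nuclear receptor of mitochondrial genes, was the 1 called, at 1.11 (SE 0.144), and no longer with library totals. The Esrra steps were 1.32 (SE 0.189) from PN2 to PN14 and 0.40 (SE 0.189) from PN14 to PN28. Ppargc1a, a coactivator of mitochondrial genes, was at 4.37 to 6.07 FPKM with a value of 0.86 (SE 0.131), and Ppara, the fatty acid receptor that drives ketogenesis in liver, was at 6.95 FPKM at E18.5 and 1.88 to 2.60 later, with a value of 0.46 (SE 0.138). Neither reached the size required, and that of Ppara became -0.16 with library totals.

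**Figure D4:**
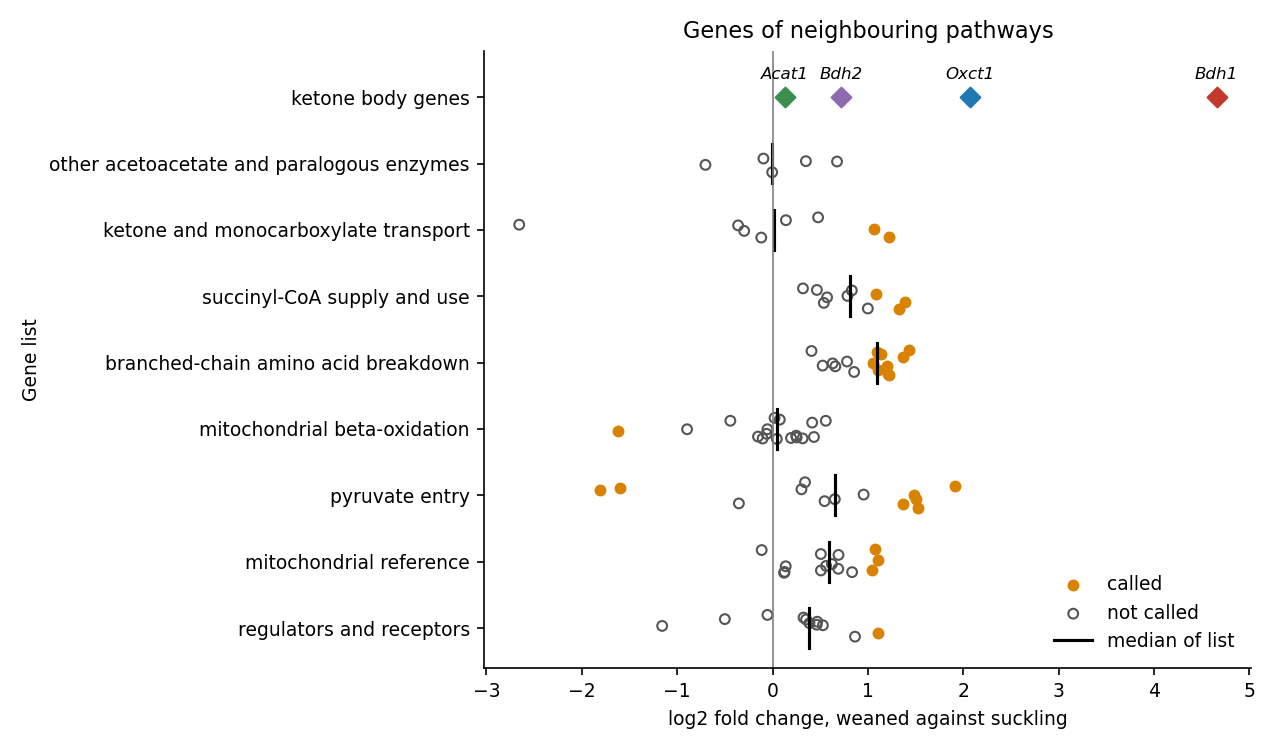
log2 fold change of weaned against suckling muscle (horizontal axis) for the ketone body genes (diamonds) and for each tested gene of 8 pathway lists (circles, filled where called); vertical bars are list medians. Bdh1 lies at 4.66 and Oxct1 at 2.07, the circle farthest to the right is Mpc1 at 1.92, and the calls to the left are Cpt1a, Pdk3 and Pdk4.

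Likeness of pattern was measured as the root mean square difference of log2(CPM + 0.1), centred on each gene's mean over the 6 libraries, among 13012 genes with a mean of at least 1 CPM. Nearest to Bdh1 were C7, a complement component (0.67), 1700001O22Rik (0.85) and Mylk4, a myosin light chain kinase family member (0.86), and 0 genes lay within 0.5. C7 stood at 0.30, 0.22, 0.21, 0.13, 1.74 and 8.31 FPKM from E18.5 to the adult in library order. Nearest to Oxct1 were Atp2b3, a plasma membrane calcium pump (0.25), Snph (0.25) and Slc1a1, a glutamate transporter (0.28), with 64 genes within 0.5. Acat1 had Gpatch1 (0.037), Smg6 (0.059) and AA415398 (0.059) nearest, and Bdh2 had Atp8a2 (0.052), Lyrm7 (0.072) and Fam63b (0.074). Profiles as level as these were common, with 7019 genes within 0.5 of Acat1 and 5603 within 0.5 of Bdh2.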

How the data were processed

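Polyadenylated RNA of 6 gastrocnemius libraries was sequenced. Paired-end reads were mapped by the authors with TopHat 2.0.5 on mm9, and RSEM gave the fragments of each RefSeq gene. The deposited expected counts are not normalized. The deposited FPKM values, also made by the authors with RSEM, are scaled to gene length and library total and given to 2 decimals.

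The counts, rounded to whole numbers, were fitted with edgeR 4.0.16 (R 4.3.3) after TMM scaling, filterByExpr by stage (16882 genes kept) and the quasi-likelihood test in a single fit of the 5 stages, with p-values adjusted over all genes tested for each comparison. Standard errors are Wald values from the fitted weights and the moderated quasi-likelihood variance. The common biological coefficient of variation was 0.188 and the prior 4.86 degrees of freedom. Per the study's methods the PN14 libraries are biological replicates, while RNA of several animals was combined for E18.5 and PN2.

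The members, gene lists and tests were chosen with earlier results of these data known. Named genes were, from each list, up to 3 called in weaned against suckling muscle with the largest change and at least 1 FPKM in a library, together with a fixed set (Aacs, Acat2, Acat3, Oxct2a, Oxct2b, Slc16a1, Slc16a7, Pdk4, Ppargc1a and Ppara), and the 3 genes nearest in pattern to each member. Some genes of the wider pathway are not reported here. The other named marker genes are the members of their lists. Alternatives were library totals, DESeq2 1.42.0 size factors or Wald test, edgeR's likelihood ratio test, a minimum mean of 1 CPM or no filter, other pseudocounts for FPKM, either PN14 replicate left out, stages pooled by phase and, chosen after seeing the data, each other library left out. Gene positions were read from GENCODE M1 and sequences from RefSeq.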

Additional observations from a re-analysis of the deposited data

How the results depend on the processing

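No paired analysis was possible because only PN14 has replicates. With 1 residual degree of freedom, differences at unreplicated stages carry the PN14 spread, and values at or under 3 counts, 0.019 to 0.0239 CPM by library, are too low to compare. Alternatives were read for the counts of pathway genes called and for the weaned against suckling values of the members. Of these, 59 stayed near the reported result, as a count of similar size or a value within the PN14 SD of the gene. Another 15 member values moved by more than that SD, 10 counts were larger and 5 were smaller.

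Of the 93 pathway genes, 26 were called in weaned against suckling muscle, against 8 with library totals alone, 0 with stages pooled by phase (where 0 of all genes were called), 4 with PN2 left out and 13 with the adult left out. The 47 called from PN2 to PN14 became 18 with library totals. Over all genes, library totals took the calls from 3923 to 6007 in weaned against suckling muscle and from 3884 to 5825 from PN2 to PN14. None were called from E18.5 to PN2 in the reported fit (22 at an unadjusted p under 0.05), against 4 with library totals, 8 with the Wald test, 6 with the likelihood ratio test and 3 with no filter. None were called from PN14 to PN28, against 1 with library totals, 1 with the Wald test and 2 with the likelihood ratio test, and none from PN28 to adult, against 1 each with the Wald test, the likelihood ratio test and no filter.

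The log2 fold changes of weaned against suckling muscle moved as follows. For Bdh1 (4.66) they were 4.02 with library totals, 5.06 pooled by phase, and 5.42, 5.71 and 3.61 without PN2, PN28 and the adult. For Bdh2 (0.72) they were 0.089, 0.49, 0.22, 0.60 and 0.84 in the same order. Oxct1 (2.07) was 1.47 with library totals, 1.55 pooled by phase and 1.16 without PN2. It was 2.455 and 1.81 without PN14 replicate 1 and replicate 2. Apart from the value without PN2, these Oxct1 shifts lay within its wide PN14 SD of 0.90 on the log2 scale. Acat1 (0.13) was -0.50 with library totals and 0.28, 0.34 and -0.089 without PN2, PN28 and the adult.

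The direction turned for Aacs (0.15 pooled by phase, 0.29 without PN2, 0.50 without the adult), Acat2 (0.44 without PN2), Acat3 (-0.014 without PN28), Slc16a1 (-0.15 with library totals), Slc16a7 (0.56 without PN2), Ppara (-0.16 with library totals) and Myh1, a fast myosin (-0.094 pooled by phase, -0.70 without PN2). Scaling by library totals moved the median of all genes to -0.671 and pooling changed the groups fitted; the cause of the other changes was not tested.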
